A study of Mus musculus with 70 samples.

Results

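The genes described are 45 genes of DNA replication and mitosis, taken by symbol from a table of gene counts in mouse lung. They were 45 of the 24423 genes in the table, and all 45 were found under the symbols used. The study exposed mice with and without a working copy of Slc26a4, the gene for the anion exchanger pendrin, to crystalline silica dust, which causes a long-lasting lung inflammation with scarring. The animals were male offspring of heterozygous 129S-Slc26a4tm1Erg/AjgJ parents (the sample labels spell the strain 129S-Slc26Atm1Egr/AjgJ), either homozygous wildtype (Pds+/+) or homozygous knockout (Pds-/-), and about 3 months old at exposure. Silica mice breathed Min-U-Sil5 silica at 15 mg/m3 in a whole-body chamber for 6 hours a day on 4 days, and control mice breathed air. Lungs were taken 1 day, 3 months or 9 months after exposure, so the 12 groups are wildtype air, wildtype silica, knockout air and knockout silica at each time. Each group held 6 mice, except the wildtype air and wildtype silica groups of 9 months with 5 each, giving 70 libraries of total RNA from a piece of lung, 1 per mouse. The knockout is a germline allele, carried by every cell of the body, and a piece of whole lung mixes airway, alveoli, vessels and blood.

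A cell that divides first copies its DNA and then separates the copies. Replication needs the MCM helicase, which unwinds DNA at origins, and enzymes that supply nucleotides, and in most cell cycles these genes are switched on by E2F factors at the start of DNA synthesis. Mitosis needs cyclins and kinases, chromosome condensation, kinetochores that hold chromosomes on the spindle, motor proteins, and the machinery that pinches the cells apart, and most of these genes are held down by the DREAM complex in resting cells and switched on later by the MuvB complex with B-MYB and FOXM1. In adult lung few cells divide at rest, and after injury macrophages, alveolar type 2 cells, endothelial cells and fibroblasts are all known to enter the cycle.

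The promoters of 4 members are shown because these were the 2 members with replication roles (Mcm6, Uhrf1) and the 2 with mitotic roles (Mki67, Top2a) that had the smallest adjusted p-values in the 1 day silica comparisons, with Uhrf1 at 2 annotated starts. Each is the 250 bases before the annotated start, 5′ to 3′ on the gene's strand, from RefSeq on GRCm38.p6: Mcm6 at chr1:128359706-128359955 (minus strand), Uhrf1 at chr17:56303087-56303336 and chr17:56304063-56304312 (both plus strand), Mki67 at chr7:135716380-135716629 (minus strand) and Top2a at chr11:99024190-99024439 (minus strand). The gene records of Mki67 and Top2a end at positions 135716450 and 99024199, so part of each of these windows lies within the gene record. The mice are of a 129S strain, while the reference is of C57BL/6J. Capitals mark the letters searched for on both strands, and on the opposite strand each appears as its reverse complement.
Mcm6: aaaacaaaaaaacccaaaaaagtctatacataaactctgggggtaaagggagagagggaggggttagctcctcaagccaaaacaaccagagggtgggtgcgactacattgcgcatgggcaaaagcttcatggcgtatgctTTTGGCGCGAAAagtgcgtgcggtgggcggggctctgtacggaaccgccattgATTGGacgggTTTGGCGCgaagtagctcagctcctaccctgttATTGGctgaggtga
Uhrf1 upstream start: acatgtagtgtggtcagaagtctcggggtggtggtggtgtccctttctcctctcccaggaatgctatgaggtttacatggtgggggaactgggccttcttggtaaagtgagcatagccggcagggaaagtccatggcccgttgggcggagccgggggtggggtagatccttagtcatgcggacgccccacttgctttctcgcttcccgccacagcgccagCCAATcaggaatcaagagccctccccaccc
Uhrf1 downstream start: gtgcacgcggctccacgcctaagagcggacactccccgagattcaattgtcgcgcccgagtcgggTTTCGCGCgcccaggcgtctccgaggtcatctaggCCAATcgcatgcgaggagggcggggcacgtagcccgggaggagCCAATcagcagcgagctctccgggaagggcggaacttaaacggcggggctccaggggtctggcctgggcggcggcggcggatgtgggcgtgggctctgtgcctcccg
Mki67: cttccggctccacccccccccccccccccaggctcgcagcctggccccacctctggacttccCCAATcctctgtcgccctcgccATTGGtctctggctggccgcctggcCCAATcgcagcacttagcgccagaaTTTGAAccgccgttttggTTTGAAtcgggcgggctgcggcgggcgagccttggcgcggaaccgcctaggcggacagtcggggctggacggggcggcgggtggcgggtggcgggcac
Top2a: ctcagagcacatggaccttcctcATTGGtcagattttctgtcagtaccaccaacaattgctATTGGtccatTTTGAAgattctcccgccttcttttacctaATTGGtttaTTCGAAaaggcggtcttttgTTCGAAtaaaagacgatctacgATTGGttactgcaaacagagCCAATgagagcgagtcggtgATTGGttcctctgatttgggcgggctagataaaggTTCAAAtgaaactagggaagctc
The letters searched were CCAAT (the box bound by NF-Y), TTTGAA or TTCGAA (the cell cycle homology region, CHR, bound by MuvB complexes), and TTTCCCGC, TTTGGCGC, TTTCGCGC or TTTGCCGC (forms of the E2F site). In Mcm6, TTTGGCGC on the printed strand overlapped TTTCGCGC on the other strand, which makes the first run of capitals longer than 1 site. Mcm6 and the downstream Uhrf1 promoter held E2F letters and no CHR letters, while Mki67 and Top2a held CHR letters and no E2F letters. Promoters were matched for 38 of the 45 members, 41 promoters in all. A member was counted if any of its promoters held the letters, while the background was counted per promoter. For CCAAT together with CHR letters, those of a member could lie in different promoters. CCAAT was present in 26 of these 38 members (68.4%), against 33.8% of 32851 promoters of the same length. CHR letters were present in 13 of 38 (34.2% against 17.1%), and CCAAT together with CHR letters in 11 (28.9% against 6.02%). E2F letters were present in 6 of 38 (15.8% against 1.86%). By role, CHR letters were found in 12 of the 29 mitosis members with a promoter and in 1 of the 9 replication members, Mcm2. E2F letters were found in 4 of the 9 replication members (Hells, Mcm5, Mcm6, Uhrf1) and in 2 of the 29 mitosis members (Cdk1, Kif15). These matches describe the letters in a short window and are no evidence of binding.

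Library totals ranged from 802478 to 5596320 counts, with a median of 2183480, which is shallow for genes of this kind. The members together took 0.0354% of all counts (56640 counts), and Mki67 alone gave 15.7% of these. Slc26a4 itself ranged from 4.22 to 12.6 CPM (counts scaled to a common library size) in wildtype air mice and from 0.982 to 3.24 in knockout air mice at 1 day, and was higher after silica in both genotypes (24.7 to 69.6 and 6.01 to 20.5). The knockout allele therefore still gave counts, and whether they come from outside the altered part of the gene is not given in the sources used here. Slc26a4 stood apart in 3 air libraries of 9 months. The library labelled knockout, air, 9 months, mouse 4 had 51.7 CPM and knockout mouse 5 had 16.8 CPM, while the other knockout air mice of 9 months had at most 3.71 CPM. The 51.7 CPM was the highest of all knockout libraries, above 36.4 CPM in a knockout silica mouse of 3 months. It lay within the wildtype silica range of 9 months (20.5 to 79.1 CPM). The label of that library is therefore uncertain, and it was kept under its label. Wildtype mouse 5 had 74.2 CPM, while the other wildtype air mice of 9 months had at most 21.6 CPM. The same 3 mice had Chil3, a product of alveolar macrophages, above 2000 CPM (6583, 2997 and 8011), while the other air mice of all times lay below that level. This limit was applied to air mice only, and 1 wildtype silica mouse of 9 months at 2472 CPM stayed in. Results at 9 months are given with and without these 3 libraries. Mouse numbers are names only.

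At 1 day after silica, the cell division genes were higher in both genotypes. In wildtype lungs, 21 of the 33 members that passed the low-count filter rose and none fell at an adjusted p under 0.05 (edgeR quasi-likelihood test, adjusted over all genes tested), where 1.95% of all genes tested rose. In knockout lungs 24 of 33 rose and none fell, where 1.7% of all genes rose. The median log2 fold change of the 33 tested members was 1.21 in wildtype and 1.30 in knockout, beside a median of 0.000326 over all genes tested in wildtype and -0.00116 in knockout. The range over members was -0.35 (Stmn1) to 2.15 (Birc5) in wildtype and 0.17 (Mcm4) to 2.46 (Cdk1) in knockout. The filter can be passed through the silica group alone, so these counts describe the members that passed and are not support on their own. The knockout count was 15 of 33 with voom (1.51% of all genes) and 15 of 25 tested with the knockout groups fitted alone (0.933%). In a piece of lung, more dividing cells and more RNA per cell cannot be told apart.

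The summed level of all 45 members, which needs no filter, was 225 to 272 CPM (median 243) in wildtype air mice and 358.5 to 629 CPM (median 568.1) in wildtype silica mice at 1 day. In knockout mice it was 217 to 293 CPM (median 248) in air and 362 to 906 CPM (median 512) in silica. Every silica mouse lay above every air mouse of its genotype. The share of counts taken by Lars2, 8.33% over all libraries, also differed in wildtype at 1 day. It was 8.28 to 11.5% (mean 9.88%) in wildtype air and 4.36 to 8.67% (mean 7.12%) in wildtype silica. In knockout the means were close, with 4.28 to 9.04% (mean 6.72%) in air and 1.74 to 8.12% (mean 6.67%) in silica. At 3 months the air and silica means were 9.47 and 9.85% in wildtype and 9.08 and 6.81% in knockout. At 9 months they were 11.3 and 7.82% in wildtype and 6.58 and 8.62% in knockout. The part of the Lars2 share in the member values was not tested, and the lowest share was that of knockout silica mouse 3 of 1 day. Knockout silica mice 1 and 3 of 1 day had the highest summed member level of all 70 mice, at 830 and 906 CPM. The 10 replication members summed to 97.3 to 124 CPM in wildtype air and 130.5 to 182 CPM in wildtype silica, and the 35 mitosis members to 123 to 149 CPM and 217 to 446 CPM. The counts of mitosis members per count of replication members lay between 1.20 and 1.48 in wildtype air and between 1.53 and 2.59 in wildtype silica. In knockout mice the same ratio lay between 1.16 and 1.78 in air and between 1.65 and 3.67 in silica, so that the knockout groups overlapped.

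**Figure D1:**
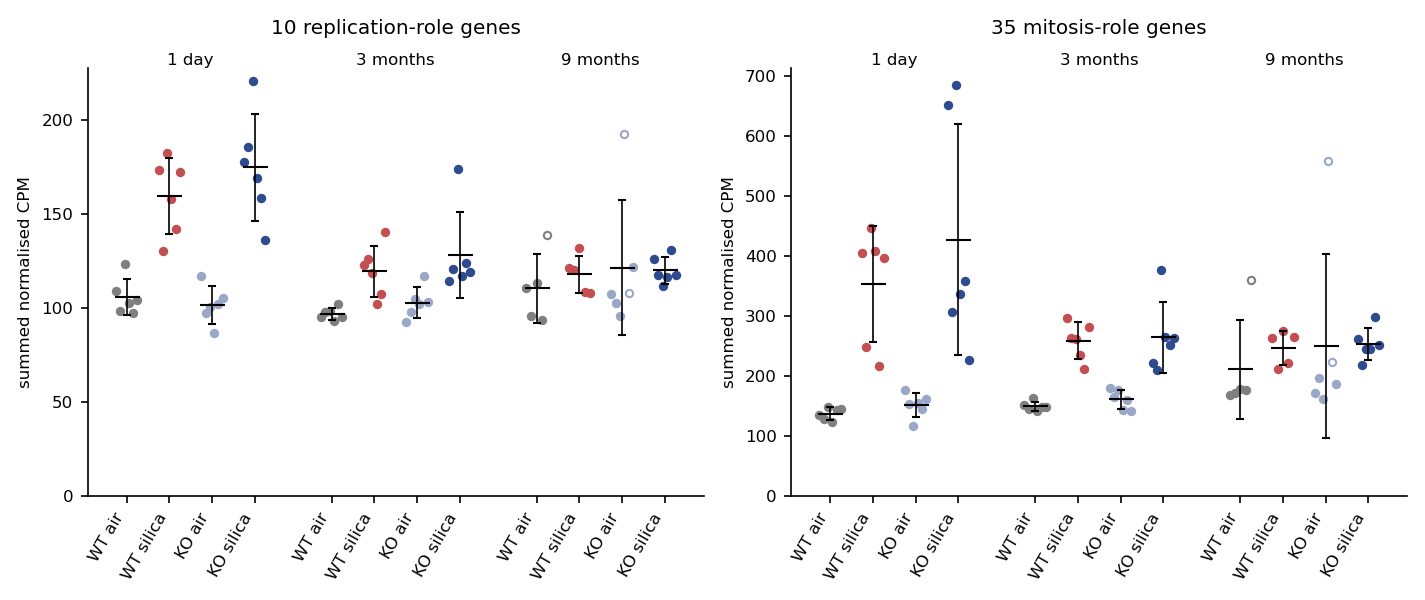
Summed normalised CPM of the 10 replication members and the 35 mitosis members in each of the 70 mice (points), with the group mean and SD, for air and silica at each time in both genotypes. At 1 day every silica mouse lies above the air mice of its genotype, and at 9 months the open circles, the 3 air mice with high Chil3, include the 2 highest air values.

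Single genes showed the same separation to different degrees. Among all 45 members, every wildtype silica mouse lay above every wildtype air mouse at 1 day for 20, of which 15 were among the 33 tested (2.05% of all genes tested were separated in this way). In knockout mice 15 of 45 were separated, 12 of them among the 33 tested (1.04% of all genes). Uhrf1, Nek2, Top2a, Mki67, Cenpf, Kif2c and Kif23 were separated in both genotypes.

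Of the replicative helicase subunits, Mcm6 passed in both genotypes. Its level was 6.97 to 9.52 CPM (median 8.02) in wildtype air and 12.1 to 20.4 CPM (median 17.4) in wildtype silica, a log2 fold change of 1.07 ± 0.16 (SE, n = 6 and 6, edgeR adjusted p = 2.79e-05). In knockout mice it was 5.89 to 12.1 CPM (median 7.53) in air and 12.0 to 19.0 CPM (median 16.4) in silica, a log2 fold change of 0.94 ± 0.17 (edgeR adjusted p = 0.000883). The wildtype groups did not overlap, and in knockout mice only the highest air mouse reached the lowest silica mouse. Mcm2 rose in wildtype (0.68 ± 0.18, edgeR adjusted p = 0.0293), with 0.65 ± 0.20 in knockout (0.0960). Mcm3 and Mcm5 rose in knockout, without overlap (0.73 ± 0.13 and 1.01 ± 0.21), with 0.33 ± 0.12 and 0.46 ± 0.20 in wildtype, where neither passed. Mcm4, the most abundant helicase member per kilobase of exon in air, had log2 fold changes of 0.24 in wildtype and 0.17 in knockout and passed in neither. In all, 2 of 5 helicase members rose in wildtype and 3 of 5 in knockout.

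Of the genes for nucleotide supply and copied chromatin, Uhrf1, which guides DNA methylation to newly copied strands, was separated in both genotypes. It was 4.01 to 6.82 CPM (median 4.57) in wildtype air and 9.46 to 21.3 CPM (median 15.4) in wildtype silica, a log2 fold change of 1.57 ± 0.24 (edgeR adjusted p = 4.29e-05). In knockout mice it was 1.47 to 6.46 CPM (median 5.61) in air and 8.42 to 20.8 CPM (median 15.2) in silica, a log2 fold change of 1.68 ± 0.27 (edgeR adjusted p = 0.000145). The air and silica groups did not overlap in either genotype. Rrm2, a subunit of the ribonucleotide reductase that makes deoxynucleotides, was 0.922 to 3.59 CPM in wildtype air and 3.49 to 5.18 CPM in wildtype silica, with 0.648 to 2.87 CPM in knockout air and 4.21 to 10.4 CPM in knockout silica. Its groups overlapped slightly in wildtype (0.79 ± 0.28, edgeR adjusted p = 0.163) and were separated in knockout (1.70 ± 0.31, edgeR adjusted p = 0.000627). Hells, a chromatin remodeller that acts with DNA methylation, rose in knockout (1.14 ± 0.27). Tyms, the thymidylate synthase, had 0.57 in wildtype and 0.74 in knockout and passed in neither. Thus 1 of 4 tested genes of this role rose in wildtype and 3 of 4 in knockout, and the salvage kinase gene Tk1 was below the filter.

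Of the mitotic cyclins and kinases, 3 of the 4 tested members rose in both genotypes. Cdk1, the kinase that drives entry into mitosis, was 0.905 to 3.23 CPM (median 1.57) in wildtype air and 1.10 to 6.47 CPM (median 5.4) in wildtype silica (1.51 ± 0.36, edgeR adjusted p = 0.0121). Wildtype silica mouse 5, at 1.10 CPM, lay within the air range. In knockout mice Cdk1 was 0 to 2.02 CPM (median 0.815) in air and 3.68 to 8.54 CPM (median 5.50) in silica, with no overlap (2.46 ± 0.43, edgeR adjusted p = 0.000387). The knockout air levels rest on a few counts per library, so the size of this fold change is uncertain. Nek2, a kinase that separates the centrosomes, was 3.23 to 7.43 CPM (median 4.16) and 8.47 to 16.8 CPM (median 11.0) in wildtype air and silica (1.26 ± 0.23, edgeR adjusted p = 0.000526). In knockout it was 2.59 to 8.35 CPM (median 3.88) and 10.4 to 17.2 CPM (median 11.1) (1.40 ± 0.26, edgeR adjusted p = 0.000762). Nek2 did not overlap between air and silica in either genotype. Ccna2, the A-type cyclin of DNA synthesis and early mitosis, rose by 1.52 and 1.66. Plk1, a kinase of spindle and centrosome maturation, had 0.73 and 0.60 and passed in neither genotype.

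The chromosome structure genes Mki67 and Top2a had some of the smallest adjusted p-values of the members. Mki67 encodes the Ki-67 protein that coats mitotic chromosomes and is widely used as a stain for cycling cells. It was 19.5 to 31.1 CPM (median 22.2) in wildtype air and 48.4 to 116 CPM (median 106) in wildtype silica, a log2 fold change of 1.98 ± 0.25 (edgeR adjusted p = 2.76e-06). In knockout mice it was 27.3 to 42.2 CPM (median 30.6) in air and 45.1 to 207 CPM (median 89.4) in silica (1.84 ± 0.26, edgeR adjusted p = 1.38e-05). The silica groups were wide, with knockout mice 1 and 3 at 192 and 207 CPM and the other 4 between 45.1 and 92.0. Top2a, the topoisomerase that untangles sister chromatids, was 7.60 to 16.8 CPM (median 11.7) and 18.4 to 45 CPM (median 37.6) in wildtype air and silica (1.56 ± 0.24, edgeR adjusted p = 6.36e-05). In knockout it was 7.13 to 15.9 CPM (median 9.43) and 18.6 to 57.7 CPM (median 29.6) (1.70 ± 0.27, edgeR adjusted p = 7.57e-05). Neither gene overlapped between air and silica.

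**Figure D2:**
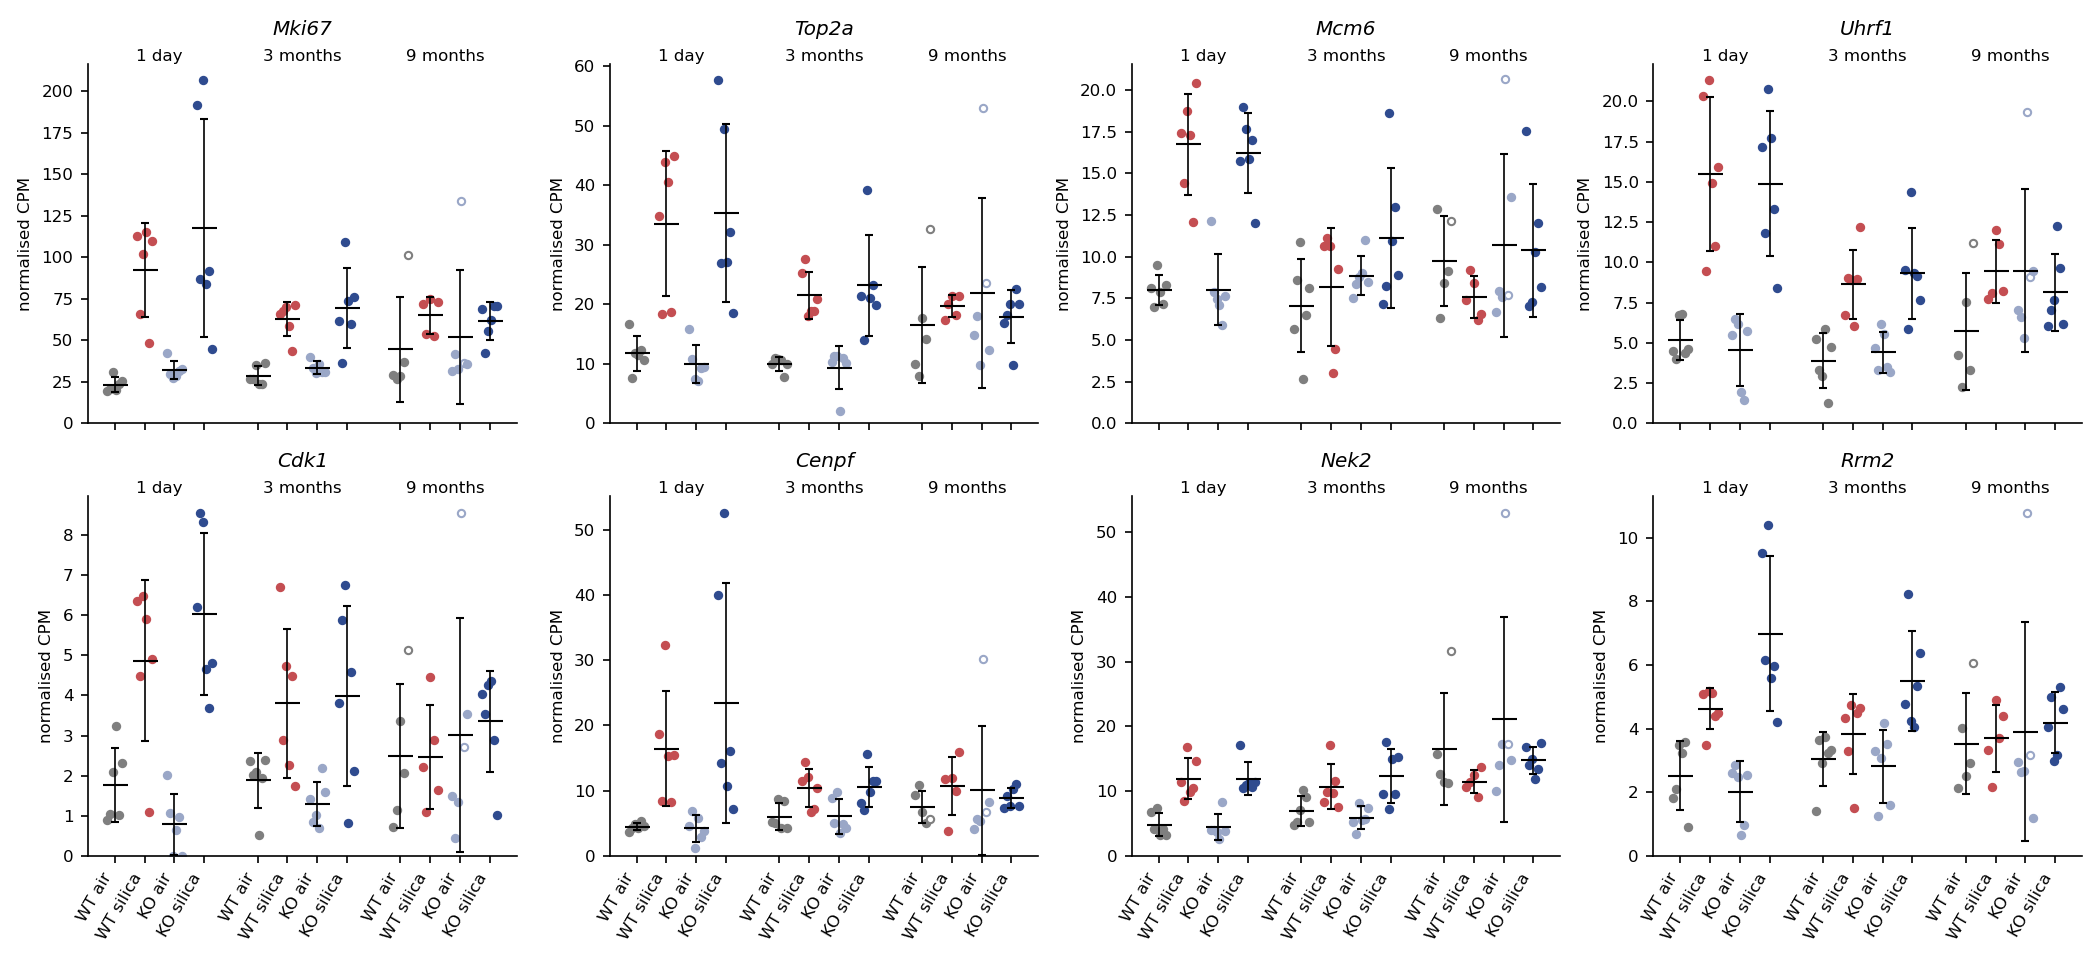
Normalised CPM of Mki67, Top2a, Mcm6, Uhrf1, Cdk1, Cenpf, Nek2 and Rrm2 in each mouse (points) for the 12 groups, with group means and SD. Mki67 of wildtype mice at 1 day sits between 19.5 and 31.1 CPM in air and between 48.4 and 116 CPM in silica.

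Of the 6 tested kinetochore and checkpoint genes, 3 rose in wildtype and 4 in knockout. Cenpf, a large protein of the outer kinetochore, was 3.62 to 5.39 CPM (median 4.46) in wildtype air and 8.25 to 32.3 CPM (median 15.4) in wildtype silica (1.81 ± 0.39, edgeR adjusted p = 0.00452). In knockout it was 1.24 to 6.82 CPM (median 4.22) in air and 7.21 to 52.5 CPM (median 15.2) in silica (2.33 ± 0.41, edgeR adjusted p = 0.000405). Both pairs of groups were separated, although the lowest knockout silica mouse was close to the highest air mouse. Casc5 (the current symbol is Knl1), the scaffold of the kinetochore's microtubule-binding network, rose by 1.62 ± 0.30 and 1.16 ± 0.30. Cenpe, a kinetochore motor, rose by 1.23 and 1.68. Bub1b, which encodes the checkpoint protein BUBR1, rose in knockout (1.82 ± 0.35), with 1.05 in wildtype (edgeR adjusted p = 0.0941). Bub1 and Cdc20, a checkpoint kinase and the activator of the anaphase-promoting complex, passed in neither genotype, with 0.85 and 0.94 for Bub1 and 1.38 and 1.21 for Cdc20.

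The single tested member of the chromosomal passenger complex, Birc5 (survivin), rose in wildtype from 0 to 1.63 CPM in air to 1.65 to 5.32 CPM in silica (2.15 ± 0.42, edgeR adjusted p = 0.00166). In knockout it was 0 to 2.89 CPM and 2.40 to 6.76 CPM (1.44, edgeR adjusted p = 0.0645), and these groups overlapped. Of the spindle genes, the motor gene Kif11 rose by 1.58 and 1.48, Tpx2, which activates Aurora A on the spindle, by 1.17 and 1.54, and the microtubule binder Nusap1 by 1.70 and 1.70. Kif4 rose in wildtype (1.31, with 1.09 in knockout) and Kif15 in knockout (1.30, with 0.95 in wildtype). Stmn1, a microtubule destabiliser that is also made outside mitosis, stood apart. It was 18.8 to 24.9 CPM in wildtype air and 9.00 to 24.6 CPM in wildtype silica, with a log2 fold change of -0.35 ± 0.24 (edgeR adjusted p = 0.552) and 0.26 ± 0.25 in knockout.

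Each of the 5 cytokinesis genes rose in both genotypes. Kif20a, a motor of the central spindle, rose by 1.92 and 1.67, and Prc1, which bundles the microtubules there, by 1.38 and 1.56. Kif23, the motor of the centralspindlin complex, was 5.53 to 8.87 CPM in wildtype air and 11.0 to 18.5 CPM in silica, and 4.05 to 10.0 CPM and 11.2 to 28.6 CPM in knockout, with log2 fold changes of 1.15 and 1.20. These groups did not overlap in either genotype. Ect2, which activates RhoA at the division plane, rose by 1.21 and 1.06, and Anln, which links the contractile ring to the membrane, by 1.03 and 0.85.

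**Figure D3:**
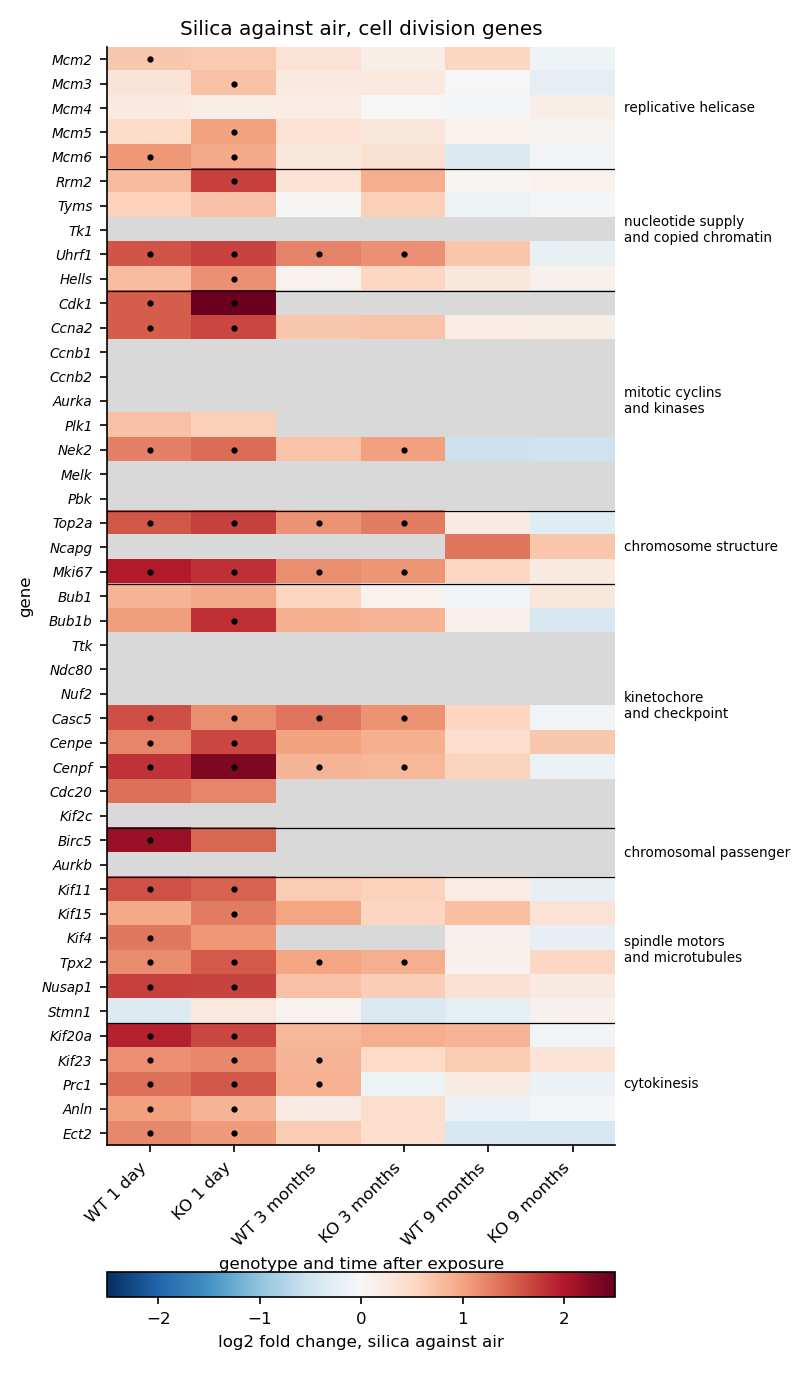
Log2 fold change of silica against air for the 45 members (rows, by role) in the 6 silica comparisons (columns), with dots for an adjusted p under 0.05 and grey for members below the low-count filter. Dots stand in most mitosis rows at 1 day (21 in wildtype and 24 in knockout over all roles), in 8 and 7 rows at 3 months, and in none at 9 months.

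The filter left out 12 members at 1 day: Tk1, Ccnb1, Ccnb2, Aurka, Melk, Pbk, Ncapg, Ttk, Ndc80, Nuf2, Kif2c and Aurkb. Among these, Aurkb had 214 counts, Ccnb1 240 and Tk1 520 over all 70 libraries. In a fit of every gene with a count, 29 of 45 members rose in wildtype (1.42% of all genes) and 27 in knockout (1.29%). The B-type cyclin gene Ccnb1 was 0 to 0.453 CPM in wildtype air and 0.498 to 5.32 CPM in wildtype silica, and rose by 2.77 ± 0.59 in that fit (edgeR adjusted p = 0.00313), with 1.25 ± 0.46 in knockout (0.251). Kif2c, a microtubule depolymeriser, rose in both genotypes (1.95 ± 0.44 and 2.48 ± 0.49), as did the kinase gene Melk (2.25 ± 0.53 and 2.12 ± 0.57). Aurka, which encodes Aurora A, rose in wildtype (1.74 ± 0.41), with 1.53 ± 0.44 in knockout (edgeR adjusted p = 0.0705). Ncapg, a condensin subunit, rose in knockout (1.77 ± 0.42), with 0.76 ± 0.37 in wildtype.

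Levels between genes were compared per kilobase of annotated exon. In wildtype air lungs of 1 day, Stmn1 (10.9 CPM per kb), Mcm4 (8.64) and Mcm3 (5.88) were the highest and Ccnb1 (0.0681) the lowest. Mki67 stood at 2.33 CPM per kb in air, below Mcm5 (2.62), and at 9.19 in silica, below Mcm4 (10.1) alone. In knockout mice Mki67 was at 3.19 CPM per kb in air and 11.7 in silica, next to Stmn1 (11.9). The 3 members that were most abundant in wildtype air had wildtype silica differences of -0.35 (Stmn1), 0.24 (Mcm4) and 0.33 (Mcm3) on the log2 scale.

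**Figure D4:**
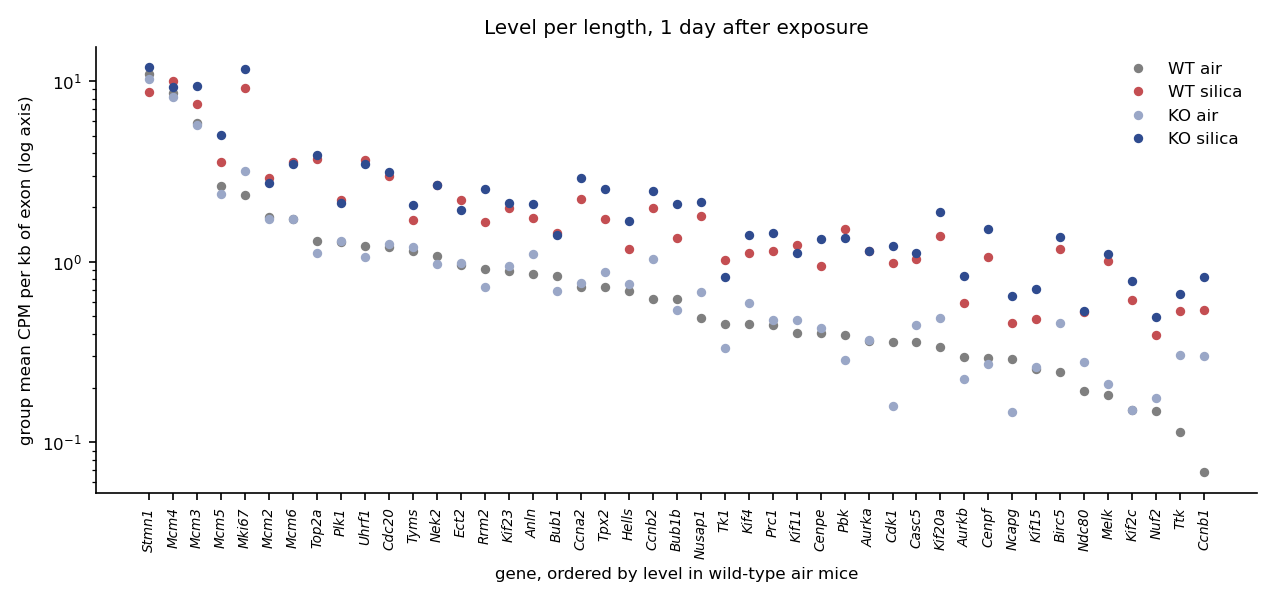
Mean normalised CPM per kilobase of exon for the 45 members (log axis) in the 1 day air and silica groups of both genotypes. Stmn1, Mcm4 and Mcm3 lead in wildtype air, and Mki67 moves from 2.33 to 9.19 CPM per kb between wildtype air and wildtype silica.

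Other genes of the same processes were read from lists. Of 58 other mitosis genes, 25 were tested at 1 day, where 1.95% of all genes tested rose in wildtype and 1.7% in knockout. In each genotype 10 of the 25 rose, with median log2 fold changes of 0.78 and 0.77. They included Aspm, a spindle pole protein (1.95 ± 0.35 in wildtype and 1.92 ± 0.34 in knockout), Kif14 and Kif20b in wildtype (1.64 and 1.20), and Ckap2l, Hmmr and Cep55 in knockout (2.13, 1.97 and 2.14). Of 39 tested other replication genes, 1 rose in wildtype, Pole (1.30 ± 0.26), and 3 in knockout, Lig1, Pcna and Mcm7 (0.76, 0.61 and 0.55), with medians of 0.24 and 0.26. The wildtype count is near the 1.95% of all genes that rose. Of 8 tested genes for homologous recombination and fork repair, Brca1 and Fancd2 rose in wildtype (1.16 and 1.40) and none in knockout.

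Among upstream regulators, few passed the threshold. Over all genes tested at 1 day, 1.95% rose in wildtype and 1.7% in knockout. Of the 12558 genes tested, 53 fell in wildtype and 28 in knockout. Single calls among so few tested genes are no result about a list. None of 8 tested cyclins and kinases of the first gap phase rose in wildtype and 1 rose in knockout, Myc (0.97 ± 0.25). Of 16 tested E2F, RB and mitotic transcription factors, none rose in wildtype and 1 in knockout, Foxm1 (1.15 ± 0.27). Of 6 tested CDK inhibitors, Cdkn1c fell by 0.48 in wildtype, and of 14 tested p53 targets Bbc3 fell by 0.82 in wildtype, with none changed in knockout.

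Cell markers moved at the same time, and their part in the member values was not tested. Over all genes tested at 1 day, 1.95% rose in wildtype and 1.7% in knockout. Of 10 tested alveolar macrophage markers, 4 rose in each genotype (Marco, Itgax, Plet1, Atp6v0d2), and their summed level was 741 to 910 CPM in wildtype air, 866 to 1004 in wildtype silica, 814 to 975 in knockout air and 929 to 1184 in knockout silica. Of 10 tested recruited macrophage and monocyte markers, 3 rose in wildtype (Spp1, Gpnmb, Mmp12) and 4 in knockout (those and C1qb). Their sums were 154 to 214 CPM in air and 214 to 300.0 in silica in wildtype, and 192 to 239 and 233 to 370 in knockout. Of 6 tested neutrophil markers 2 rose in wildtype (Cxcr2, S100a9) and none in knockout, with sums of 66.7 to 96.7 CPM against 102 to 153 in wildtype and 84.3 to 132 against 90.2 to 202 in knockout.

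Markers of neutrophil precursors, erythroid precursors, and germinal centre and plasma cells were also read. The 7 neutrophil precursor markers summed to at most 8.49 CPM in any 1 day mouse, none passed the filter, and Elane had no count in any group. Of erythroid precursor markers (2 tested) and germinal centre and plasma cell markers (4 tested) none passed at 1 day. No marker of T and NK cells (7 tested), B cells (6), dendritic cells (4), ciliated cells (7), endothelium (8), fibroblasts (7) or heart muscle (8) passed. Alveolar type 2 markers Lamp3 and Sftpa1 (of 8) and the type 1 marker Pdpn (of 8) rose in both genotypes, and the club cell marker Cyp2f2 (of 3 tested) fell in both.

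At 3 months, 8 of 28 tested members were higher in silica in wildtype lungs, where 2.24% of all genes rose, and 7 of 28 in knockout lungs, where 3.02% rose. The medians over the tested members were 0.69 and 0.59. Mki67, Top2a, Uhrf1, Casc5, Tpx2 and Cenpf rose in both genotypes, Kif23 and Prc1 in wildtype, and Nek2 in knockout. Mki67 was 24.0 to 36.7 CPM (median 26.6) in wildtype air and 43.9 to 71.3 CPM (median 66.8) in wildtype silica (1.17 ± 0.16, edgeR adjusted p = 6.78e-06). In knockout it was 30.4 to 40.1 CPM (median 32.2) and 36.4 to 109 CPM (median 67.8) (1.10 ± 0.16, edgeR adjusted p = 1.96e-05), with the lowest silica mouse inside the air range.

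Top2a at 3 months was 7.78 to 11.0 CPM and 18.1 to 27.6 CPM in wildtype air and silica (1.12 ± 0.20, edgeR adjusted p = 0.000715), and 2.08 to 11.3 CPM and 14.1 to 39.3 CPM in knockout (1.30 ± 0.21, edgeR adjusted p = 0.000151). Neither pair of groups overlapped. Uhrf1 rose by 1.24 ± 0.26 and 1.15 ± 0.26, and Casc5 by 1.34 and 1.12. No MCM gene passed at 3 months, and Mcm6 had 0.29 ± 0.26 and 0.37 ± 0.25. Complete separation of the groups held for 6 of 45 members in wildtype (5 of the 28 tested, 1.78% of all genes) and for 2 in knockout, Ccnb2 and Top2a (1 of the 28 tested, 1.45% of all genes).

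The summed level of the 45 members was 234 to 262 CPM in wildtype air and 319.8 to 422 CPM in wildtype silica at 3 months, and 245 to 281 CPM and 331 to 551 CPM in knockout, again without overlap. Knockout silica mouse 3 was the highest at 551 CPM. The counts at 3 months rested on single libraries: the wildtype count was 5 without wildtype air mouse 2 (1.93% of all genes) or wildtype silica mouse 1 (1.8%). The knockout count was 4 without knockout air mouse 4 (2.34%), knockout silica mouse 3 (2.27%) or knockout silica mouse 5 (2.94%). It was also 4, of 23 tested, with the knockout groups fitted alone (1.82%), and 3 of 37 with all 70 libraries in the fit (1.61%). With every gene kept, 10 of 45 members rose in wildtype (1.48% of all genes) and 6 in knockout (1.99%). Of other mitosis genes, Tacc3 (of 20 tested) rose in wildtype and none in knockout, where 2.24% and 3.02% of all genes rose. Of other replication genes Pole (of 35) rose in knockout, which is no excess over that share. Recruited macrophage and monocyte markers rose in 6 of 11 tested in wildtype and 7 of 11 in knockout, with sums of 161 to 219 CPM against 399 to 548 in wildtype and 188 to 231.5 against 397 to 932 in knockout. Of 6 tested dendritic cell markers, 4 and 5 rose. Their part in the member values was not tested.

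At 9 months, no member passed in either genotype among 30 tested, where 0.0234% of all genes rose in wildtype and 0.125% in knockout. At an unadjusted p under 0.05 there were 4 of the 30 members in wildtype, beside 875 of all 12826 genes tested. In knockout there were 0 members, beside 1350 of 12826 genes. At an adjusted p under 0.05, DESeq2 and voom with quality weights also called 0 members. Over all genes, DESeq2 called 3 higher and 0 lower in wildtype, and 31 and 23 in knockout. Voom called 36 higher and 6 lower in wildtype, and 115 and 28 in knockout. The members with the smallest p in wildtype were Kif23 (0.63 ± 0.23), Ncapg (1.33 ± 0.56) and Kif15 (0.75 ± 0.34). The spread in air was wide. Mki67 in the 5 wildtype air mice was 27.0, 28.6, 29.3, 37.0 and 101 CPM, and in the 5 wildtype silica mice 52.4, 53.6, 71.7, 73.0 and 74.7 CPM (0.53 ± 0.35, edgeR adjusted p = 0.822). Apart from the air mouse at 101 CPM, which was one of the 3 with high Chil3, every silica mouse lay above every air mouse. In knockout mice Mki67 was 31.9 to 134 CPM (median 36.2) in air and 42.4 to 70.8 CPM (median 65.6) in silica (0.23 ± 0.32, edgeR adjusted p = 0.866). The air mouse at 134 CPM was mouse 4, whose Slc26a4 level was above that of every other knockout library.

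Without the 3 high-Chil3 air libraries, 2 members rose in wildtype at 9 months (1.22% of all genes) and 3 in knockout (1.47%). These 3 libraries also had the highest member sums of their air groups (499 CPM in wildtype, 752 and 332 CPM in knockout). No silica library was left out, so the choice itself raises the silica differences of the members. The calls of this fit are therefore not support on their own. Mki67 rose by 1.08 ± 0.15 in wildtype (edgeR adjusted p = 4.48e-05) and by 0.77 ± 0.14 in knockout (0.00168). Ncapg rose by 1.96 ± 0.50 and 1.45 ± 0.39, and Tpx2 in knockout by 1.11 ± 0.27. The median over the 30 tested members was then 0.43 in wildtype and 0.38 in knockout, against 0.18 and -0.04 with all libraries. The summed level of the members was 499 CPM in the high-Chil3 wildtype air mouse, beside 267 to 291 CPM in the other 4, and 752 CPM in the library labelled knockout, air, 9 months, mouse 4, beside 257 to 332 CPM in the other 5.

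The difference between genotypes was tested directly. No member passed for the silica effect in knockout minus wildtype at any of the 3 times, where 0% of all genes passed at each time. At an unadjusted p under 0.05 there were 2 of 33 tested members at 1 day, beside 716 of 12558 genes. At 3 months there was 1 of 28, beside 970 of 12647, and at 9 months 0 of 30, beside 901 of 12826. These shares were near or below those of all genes. At 1 day the 2 members were Mcm3 (0.40 ± 0.18) and Rrm2 (0.92 ± 0.43), both larger in knockout, with an edgeR adjusted p of 0.861. At 3 months it was Prc1 (-0.995 ± 0.35), smaller in knockout, with an edgeR adjusted p of 0.515. At 9 months the smallest p was that of Mcm2 (-0.64 ± 0.33). The calls that differ between genotypes above, such as Rrm2, Bub1b or Birc5, were therefore not shown to differ.

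Knockout and wildtype mice of the same exposure also gave no member past the threshold in any of the 6 comparisons. In air mice the share of all genes that passed was 0.0478% at 1 day, 0.142% at 3 months and 0.0156% at 9 months. In silica mice it was 0.00796%, 0.174% and 0%. At an unadjusted p under 0.05 there were 0, 1 and 0 members in air. Of the 12558, 12647 and 12826 genes tested, 1257, 1370 and 1286 reached that level. In silica there were 4 of 33, 2 of 28 and 0 of 30 tested members, beside 959, 1297 and 512 of all genes. Except in silica at 1 day, the share of members was below that of all genes. The 4 at 1 day in silica were Mcm3 (0.32 ± 0.12), Mcm5 (0.49 ± 0.20), Rrm2 (0.59 ± 0.26) and Tpx2 (0.56 ± 0.27), each higher in knockout, and the one in air was Prc1 at 3 months (0.60 ± 0.25). Voom with quality weights and DESeq2 also called 0 members, both here and for the silica effect between genotypes. Over all genes, voom called at most 86 higher and 95 lower (air, 1 day, of 12558). DESeq2 called at most 29 higher and 47 lower (air, 3 months, of 12647). With so few genes called, 0 members is no result about the members. Without the 3 high-Chil3 air libraries there were again 0 members at 9 months for the silica effect between genotypes (0.00779% of all genes), for air (0.0312%) and for silica (0.00779%). In 5 of these 9 comparisons DESeq2 gave no adjusted p for 12 to 32 of the tested members.

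**Figure D5:**
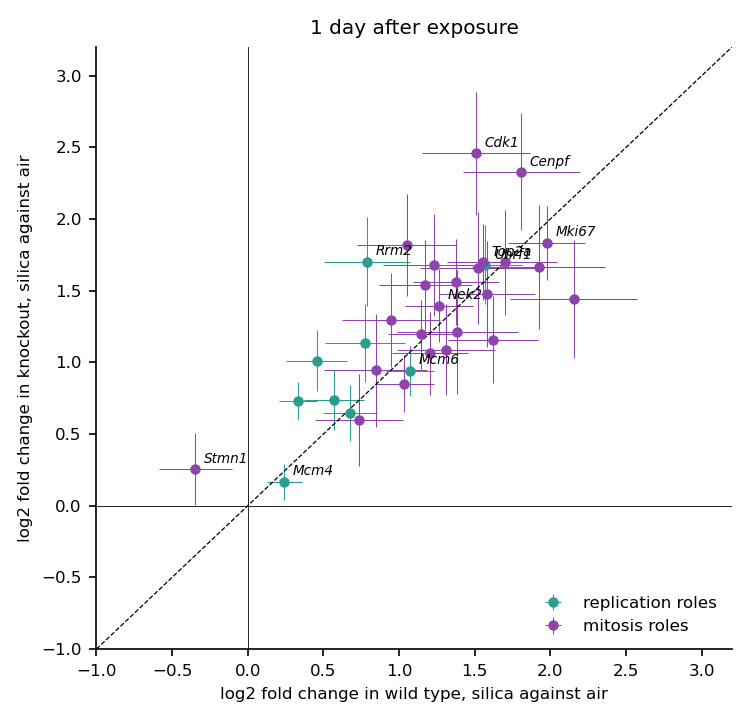
Log2 fold change of silica against air at 1 day in knockout (vertical axis) against wildtype (horizontal axis) for the 33 tested members, with standard errors as bars and the line of equal change. Points lie on both sides of the line, from Stmn1 at -0.35 in wildtype to Cdk1 at 2.46 in knockout.

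How the silica effect changed with time was tested in a fit of all 70 libraries, with the mean over both genotypes, for 37 tested members. These comparisons share the groups of each time, so they are not independent of each other. From 1 day to 3 months no member passed (0.0302% of all genes were lower), although 36 of 37 differences were negative and 15 had an unadjusted p under 0.05. Over all 13252 genes tested, 48.0% of the differences were positive and 861 had an unadjusted p under 0.05. The median difference was -0.51 on the log2 scale, and the smallest p was that of Prc1 (-1.09 ± 0.28, edgeR adjusted p = 0.171). Voom with quality weights and DESeq2 called 0 members, where 8 and 5 of all genes were lower. For 15 members DESeq2 gave no adjusted p.

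From 1 day to 9 months the silica effect was lower for 16 of 37 members (0.8% of all genes), with a median difference of -1.18 and each of the 37 negative. Over all genes tested, 48.7% of the differences were positive. Nek2 (-1.86 ± 0.30), Top2a (-1.68 ± 0.29), Ect2 (-1.56 ± 0.29), Mki67 (-1.53 ± 0.28) and Anln (-1.05 ± 0.20) had the smallest p. From 3 months to 9 months it was lower for 2 members (0.604% of all genes), Nek2 (-1.39 ± 0.29, edgeR adjusted p = 0.0179) and Top2a (-1.26 ± 0.30, edgeR adjusted p = 0.0253). With voom the counts were 6 (0.355% of all genes) and 0, where 0% of all genes passed. Without wildtype air mouse 5 of 9 months the second count was 0 (0.015% of all genes). Without the 3 high-Chil3 air libraries it was also 0 (0% of all genes), and 7 members were lower from 1 day to 9 months (0.241% of all genes): Nek2 (-1.36 ± 0.23), Top2a (-1.16 ± 0.26), Ect2, Mcm6, Anln, Prc1 and Mki67 (-0.98 ± 0.24).

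The air mice themselves differed over time. No member passed in air between 3 months and 1 day (0.0755% of all genes rose). Prc1 alone of the members had an unadjusted p under 0.05, beside 1067 of 13252 genes tested. At 9 months 10 of 37 members were higher in air than at 3 months, where 15.7% of all genes were, and 15 were higher than at 1 day, where 19% of all genes were. With voom these counts were 2 and 4, where 12.4% and 15.9% of all genes were higher, so the members lay below the background. Without wildtype air mouse 5 they were 4 and 7 (11.6% and 15.7% of all genes). Without the 3 high-Chil3 air libraries they were 2 (8.78% of all genes) and 1 (12.1%). Age, time since exposure and any difference in handling between the times cannot be told apart here.

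Without the 3 libraries, Nek2 and Birc5 remained higher in air at 9 months than at 3 months (Birc5 by 1.17 ± 0.39), and Nek2 alone than at 1 day. Nek2 was 3.23 to 7.43 CPM in wildtype air at 1 day, 4.74 to 10.1 CPM at 3 months, and 11.2, 11.4, 12.6, 15.7 and 31.7 CPM in the 5 mice of 9 months. In knockout air it was 2.59 to 8.35, 3.35 to 8.25 and 10.0 to 53.0 CPM. Within each genotype every air mouse of 9 months lay above every air mouse of the earlier times. The share of all genes separated in this way was not computed, and 19% of all genes were higher in air at 9 months than at 1 day. The separation is therefore not shown to be particular to Nek2. The log2 difference of Nek2 from 1 day was 1.98 ± 0.22 (edgeR adjusted p = 2.91e-11), and 1.48 ± 0.18 (edgeR adjusted p = 1.73e-09) without the 3 libraries. In silica mice Nek2 was 9.08 to 13.7 CPM in wildtype and 11.9 to 17.4 CPM in knockout at 9 months, and the silica differences of -0.54 and -0.52 did not pass.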

How the data were processed

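RNA-seq gene counts of 70 mouse lungs were used, 1 library per mouse. Per the submitters' processing notes, the build was mm10 and the tools, named without a role, were HISAT2 2.1.0, HTSeq 0.11.2, SAMtools 1.8, Cufflinks, Trimmomatic 0.35 and bcl2fastq 2.19. The deposited values are raw counts per gene. Per the labels' protocols, libraries were stranded total RNA depleted of ribosomal RNA. The annotation and the strand setting of the counting are not given in the sources used here, so reads of overlapping genes could be mixed. Of 24439 deposited rows, 16 repeats were dropped, which left 24423 genes.

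Computed here with edgeR 4.0.16 in R 4.3.3: filterByExpr (minimum count 10, minimum total 15), TMM factors, and quasi-likelihood tests with Benjamini-Hochberg adjustment over all genes, at an adjusted p of 0.05. The 4 groups of a time were fitted together, and all 12 groups for comparisons between times. Each standard error is an approximation from the fold change and its F statistic. CPM values were normalised with TMM factors from all 70 libraries. The fit was also run on simulated counts modelled on the 1 day libraries, with 200 changed genes drawn at random. Its result is not given here and nothing is drawn from it. No libraries were identical. The mice of a group are separate animals. The members and lists were chosen with earlier results of these data known. Members past the threshold were named by role, with full values for Mki67, Top2a and the 6 others of smallest adjusted p at 1 day, and otherwise the 3 of smallest p. Pathway and marker lists name up to 4 called genes.

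Alternatives were DESeq2 size factors, library totals, no filter, a mean CPM of at least 1, DESeq2 1.42.0, voom with quality weights (limma 3.58.1), other libraries in the fit, and leaving out each library. Leaving out the 3 air libraries of 9 months with Chil3 above 2000 CPM was chosen after seeing the data.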

Additional observations from a re-analysis of the deposited data

Results flagged for a closer look

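A group of 4 to 10 mice was marked where its highest or lowest mouse stood apart from the rest beyond Dixon's limit. This held for 25 of 132 group values. Chance marks about 1 in 20 independent values, but these values share mice and genes, so no excess can be read from the count. Most of the 25 came from 3 libraries, and no cause was tested.

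The library labelled knockout, air, 9 months, mouse 4 had the highest Slc26a4 level of all knockout libraries. It stood above the other 5 mice of its group with 752 CPM summed over the members, 193 over replication members and 559 over mitosis members. It was also the highest of the group for Mki67 (134 CPM), Top2a (53.0), Nek2 (53.0), Cenpf (30.1), Uhrf1 (19.3) and Rrm2 (10.8). Wildtype air mouse 5 of 9 months stood above its group with a member sum of 499 CPM, a mitosis sum of 359.6 CPM, Mki67 at 101 CPM and Nek2 at 31.7 CPM. Both mice were among the 3 air mice with high Chil3. Knockout silica mouse 3 of 3 months had a member sum of 551 CPM (331 to 383 in the other 5), a replication sum of 174, a mitosis sum of 377 and Top2a at 39.3 CPM.

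Single values stood apart in other mice. Top2a was low in wildtype air mouse 5 (7.78 CPM) and knockout air mouse 4 (2.08 CPM) of 3 months. Mcm6 was high in knockout air mouse 1 of 1 day (12.1 CPM). Cdk1 was low in wildtype silica mouse 5 of 1 day (1.10 CPM) and wildtype air mouse 4 of 3 months (0.534 CPM). Nek2 was high in knockout air mouse 5 (8.35 CPM) and knockout silica mouse 1 (17.2 CPM) of 1 day, and Rrm2 was low in wildtype air mouse 1 of 3 months (1.42 CPM).

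The silica effect differed between times, by the test of the difference itself in the fit of 70 libraries, for 16 members between 1 day and 9 months and 2 between 3 months and 9 months. From 1 day to 9 months the log2 differences of replication members were -0.66 for Mcm3, -1.23 for Mcm6 and -1.38 for Uhrf1. Those of cyclins, kinases and chromosome structure genes were -1.92 for Cdk1, -1.43 for Ccna2, -1.86 for Nek2, -1.68 for Top2a and -1.53 for Mki67. Kinetochore, passenger and spindle members had -1.58 (Bub1b), -1.87 (Cenpf), -1.98 (Birc5), -1.53 (Kif11) and -1.39 (Nusap1). Cytokinesis members had -1.44 (Prc1), -1.05 (Anln) and -1.56 (Ect2). From 3 months to 9 months they were -1.39 for Nek2 and -1.26 for Top2a. With the 3 high-Chil3 air libraries left out, 7 and 0 members passed.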

How the results depend on the processing

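Counts of members past the threshold moved by more than 1.5 times under these alternatives, and the cause was not tested. In some of these alternatives fewer genes or libraries entered. With voom the count was 15 for knockout silica at 1 day. For the change of the silica effect it was 0 from 3 to 9 months and 6 from 1 day to 9 months. For air at 9 months it was 2 against 3 months and 4 against 1 day. With the compared groups alone the knockout counts were 15 at 1 day (25 tested) and 4 at 3 months (23 tested), and with all 70 libraries in the fit the count at 3 months was 3. Without the 3 high-Chil3 air libraries, the counts were 2 and 3 for wildtype and knockout silica at 9 months, 0 and 7 for the change of the silica effect from 3 months and from 1 day to 9 months, and 2 and 1 for air at 9 months against 3 months and 1 day.

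Leaving out 1 library at a time gave 16 to 25 (wildtype) and 17 to 27 (knockout) members at 1 day, 5 to 9 and 4 to 8 at 3 months, and 0 for every comparison at 9 months and between genotypes. For time comparisons only the 10 wildtype libraries of 9 months were left out in turn, which gave 0 to 2 and 11 to 20 lower members for 9 months against 3 months and 1 day, and 4 to 12 and 7 to 19 for air. Every one of the 24 fits kept 15 of the 21 members called in wildtype at 1 day and 16 of 24 in knockout, and 5 of 8 and 3 of 7 at 3 months. The other alternatives all kept 21 of 21, 14 of 24, 5 of 8 and 3 of 7 of these calls where the gene was tested, and none reversed its direction. No paired analysis was possible because the animals carry unique numbers and the groups share no replicate label. At this depth members near 1 CPM rest on a few counts per library, so differences in genes such as Aurkb or Pbk may go undetected. Called members with air levels that low, such as Cdk1, Birc5 and Ccnb1, have fold changes of uncertain size.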
